A study of Mus musculus with 3 samples.

Results

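Histone lysine demethylases remove methyl groups from lysines of histone tails, and their RNA was examined here in the rostrum, or anterior head, of mouse embryos with and without a nonsense mutation in *Tet1*. The set held 10 genes, selected by a list of symbols that was drawn up with earlier results of these data known and uses no count threshold, of 24062 gene symbols in the table: *Kdm1a*, *Kdm1b*, *Kdm2a*, *Kdm3a*, *Kdm3b*, *Kdm4a*, *Kdm4b*, *Kdm4c*, *Kdm6a* and *Kdm6b*. The *tuft* library came from E9 embryos homozygous for this spontaneous mutation, which cuts short the catalytic domain, and these embryos had neural tube defects with curled anterior neural folds. The wild-type library came from E9 embryos of the 3H1 Balb background strain at a similar stage, 18 to 22 somites by the records. Each library was made from RNA pooled over 3 embryos and sequenced as reads of polyadenylated RNA. All values below compare 1 *tuft* library with 1 wild-type library, so none has a replicate error, no test was run, and genotype, pool and library cannot be told apart. The records list 2 *tuft* samples but 1 *tuft* column was analyzed, and it was not assigned to either. In a bulk sample, fewer cells of a type and less RNA per cell cannot be told apart.

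The demethylases fall into a pair of enzyme classes. KDM1A and KDM1B are flavin-dependent amine oxidases that act on mono- and dimethylated H3K4. The others carry a Jumonji C (JmjC) domain and use Fe(II), oxygen and 2-oxoglutarate, the cofactors that the TET enzymes use to oxidize methylcytosine. Within the JmjC class, KDM2A acts on H3K36, KDM3A and KDM3B on mono- and dimethylated H3K9, the KDM4 enzymes on trimethylated H3K9 and H3K36, and KDM6A and KDM6B on H3K27, the mark laid down by the Polycomb complex PRC2. Removal of H3K4 methylation is linked to gene silencing and removal of H3K9 or H3K27 methylation to gene activation, and female mouse embryos without KDM6A are known to have open neural tubes.

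Promoter windows from 250 bases before to 50 bases after an annotated start (RefSeq, GRCm38.p6) were found for 6 of the 10 genes, with 9 windows in all, and none was found for *Kdm2a*, *Kdm3b*, *Kdm4b* and *Kdm6b*. Those of *Kdm4a*, *Kdm4c* and *Kdm6a* are shown because these genes had the lowest ratios of *tuft* to wild type, and that of *Kdm1b* because it had the highest. Each is written 5′ to 3′ on the strand of the gene. Capitals mark the GC box GGGCGG, the CCAAT box with letters CCAAT and the E-box CACGTG, each searched on both strands so that a box on the other strand appears as its reverse complement. The windows lie at chr4:118179994-118180293 (minus strand), chr4:74251629-74251928 (plus strand, the downstream of a pair of *Kdm4c* starts), chrX:18162325-18162624 (plus strand) and chr13:47043249-47043548 (plus strand).
Kdm4a: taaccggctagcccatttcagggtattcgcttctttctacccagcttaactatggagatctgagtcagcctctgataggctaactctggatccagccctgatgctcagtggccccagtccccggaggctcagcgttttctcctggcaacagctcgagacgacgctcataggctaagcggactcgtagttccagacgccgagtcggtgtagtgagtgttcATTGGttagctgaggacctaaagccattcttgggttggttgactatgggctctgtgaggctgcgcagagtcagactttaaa
Kdm4c: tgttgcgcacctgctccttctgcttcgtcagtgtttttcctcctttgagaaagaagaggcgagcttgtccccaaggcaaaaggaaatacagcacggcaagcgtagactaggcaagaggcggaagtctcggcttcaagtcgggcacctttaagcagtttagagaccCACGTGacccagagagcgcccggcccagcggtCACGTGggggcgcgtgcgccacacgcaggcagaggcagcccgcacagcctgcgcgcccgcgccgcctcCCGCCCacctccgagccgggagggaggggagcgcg
Kdm6a: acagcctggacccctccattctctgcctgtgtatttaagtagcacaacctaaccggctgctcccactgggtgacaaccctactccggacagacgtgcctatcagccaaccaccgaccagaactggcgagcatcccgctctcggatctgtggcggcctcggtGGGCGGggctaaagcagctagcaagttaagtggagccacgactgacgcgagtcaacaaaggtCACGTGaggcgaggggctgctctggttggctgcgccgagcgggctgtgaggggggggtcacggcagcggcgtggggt
Kdm1b: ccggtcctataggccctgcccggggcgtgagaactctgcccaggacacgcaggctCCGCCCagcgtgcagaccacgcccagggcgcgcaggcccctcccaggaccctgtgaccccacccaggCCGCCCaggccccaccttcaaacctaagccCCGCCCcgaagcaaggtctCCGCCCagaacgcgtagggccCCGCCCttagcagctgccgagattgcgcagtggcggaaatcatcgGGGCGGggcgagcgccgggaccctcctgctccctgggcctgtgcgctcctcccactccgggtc

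These windows differed among themselves. The *Kdm1b* window held 6 GC boxes, 26 CpG dinucleotides and 72.3% G or C. The *Kdm4a* window held 13 CpG dinucleotides, 1 CCAAT box and no GC box. The *Kdm4c* window held 28 CpG dinucleotides, 1 GC box and 2 E-boxes, and the *Kdm6a* window 21 CpG dinucleotides, 1 GC box and 1 E-box. The upstream *Kdm4c* window, at the first annotated base of the gene, had no CpG and none of these boxes. Over 32851 promoters of the same length the median was 7 CpG dinucleotides, 35.7% held a GC box, 37.4% a CCAAT box and 7.15% an E-box, which contains the core ACGTG on both strands. A match of letters is a description of the window and says nothing of what binds there.

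The libraries differed in depth and in composition. Counts on genes summed to 6433067 in *tuft* against 14251942 in wild type, and 11795 and 16914 genes had at least 1 count. Levels are given as normalized CPM, counts per 1000000 counts on genes after the TMM scaling of edgeR, on which 3 counts correspond to 0.535 in *tuft* and 0.184 in wild type. Intervals given with ratios are 95% intervals for counting error only. Among markers, the summed level of 9 erythroid genes was 40728 normalized CPM in *tuft* against 2796 in wild type, of which *Hbb-y* made up 18521 and 571 and *Hba-x* 21165 and 1235. The other erythroid markers did not follow the sum: *Hbb-bh1* had a ratio of 1.08 and *Alas2* of 0.215, *Gata1* and *Klf1* were at 0 in *tuft* only and *Hba-a1* and *Hba-a2* at 0 in both libraries. Of the 7 tested, 3 were at least 2-fold lower and 3 at least 2-fold higher, with a median log2 ratio of 0.11. The sum of 10 yolk sac endoderm genes was 335 in *tuft* against 2003 in wild type, with *Apoa4* at 0 in *tuft*, and 8 of the 10 were at least 2-fold lower, against 42.8% of all 13979 genes tested, those with at least 10 counts in both libraries together. The sum of 6 endothelial genes was 112 in *tuft* against 250 in wild type, with *Pecam1* at 0 in *tuft*. Of these, 4 were at least 2-fold lower and 1, *Emcn*, higher, beside 42.8% and 21.3% of all genes tested. The sum of 6 surface ectoderm genes was 884 and 520, of which *Krt8* made up 385 and 123 and *Krt18* 350 and 181. In that list *Krt8* was at least 2-fold higher, *Cdh1* lower with a ratio of 0.229, and the other 4 lay between. The markers of the labelled tissue were present in both libraries: 10 genes of the anterior neuroectoderm summed to 928 in *tuft* against 675 in wild type, with *Hesx1* at 0 in *tuft*. This sum was carried by *Six3*, with a ratio of 4.14, and *Sox1*, with 3.16, whereas *Rax* had 2 counts in *tuft* and 389 counts in wild type, and the median log2 ratio of the 10 genes was -0.28. The 9 genes of head mesenchyme and neural crest summed to 656 and 277, with *Foxd3* at 0 in *tuft*. At least 2-fold higher were 3 of them, *Sox10* (ratio 11.1), *Twist1* (3.14) and *Foxc1* (2.77). *Pdgfra* (0.283) and *Foxd3* were at least 2-fold lower, and 4 lay between, beside the same shares of all genes. By contrast, 9 genes of the caudal axis summed to 0.713 and 3.98. The part of these cell types in the demethylase values was not tested.

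The mutated gene was examined first. *Tet1* (chr10:62804570-62887469) had 32 counts in *tuft* against 435 in wild type, a ratio of 0.214 (0.145 to 0.307). The lower *Tet1* count was in the library labelled *tuft*.

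Of the 10 demethylases, 4 were at least 2-fold lower in *tuft* and 0 were at least 2-fold higher. The 4 were the *Kdm4* genes and *Kdm6a*, which remove methyl groups from H3K9 and H3K36 or from H3K27. The other 6 lay between, *Kdm1a*, *Kdm3a*, *Kdm3b* and *Kdm6b* below equality and *Kdm1b* and *Kdm2a* above it. Of the 13979 genes tested, 42.8% were at least 2-fold lower in *tuft* and 21.3% at least 2-fold higher. Among the 8695 genes within the range of mean level of the demethylases, 6.21 to 154 normalized CPM, 30.2% were lower and 24.4% higher. The share of demethylases that were lower was thus near the background and is not a result about the family as a whole. The median log2 ratio was -0.63 for the demethylases, -0.55 for all genes tested (-0.46 with counts of 0 set to 3 counts) and -0.10 for genes in the level range. Scaling by library totals alone shifted the median of all genes by -0.39 on the log2 scale and gave 6 demethylases lower, adding *Kdm1a* and *Kdm6b*, and 49.0% of all genes lower and 15.8% higher.

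**Figure D1:**
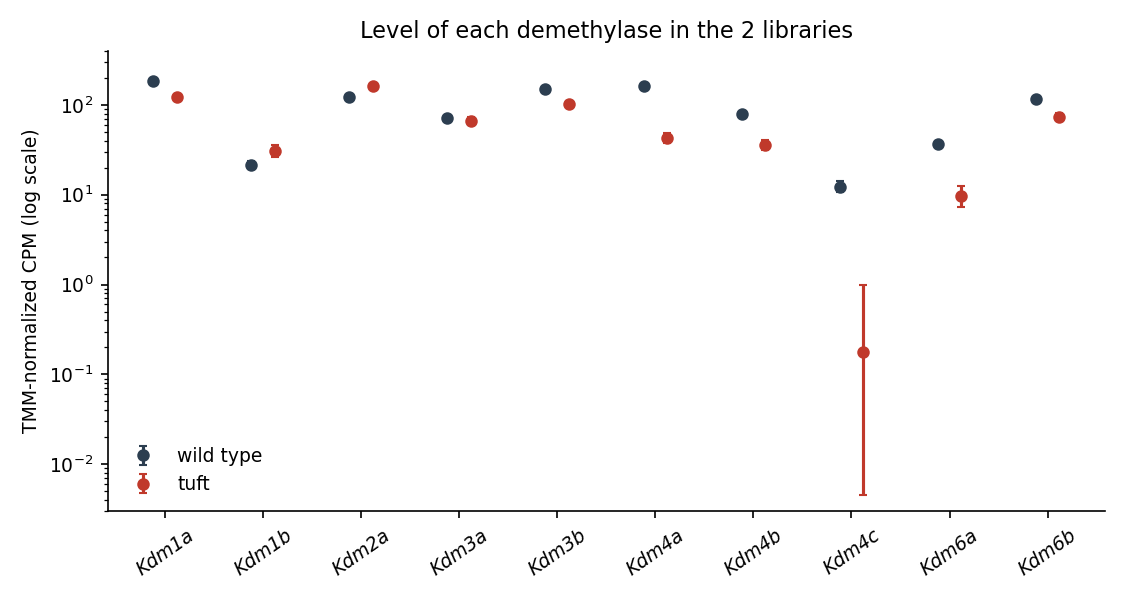
Level of each of the 10 demethylases in the wild-type and *tuft* libraries, in TMM-normalized CPM on a log axis; points are single libraries and bars 95% Poisson intervals for counting error. *Kdm4c* stands lowest in both, at 12.2 in wild type and 0.178 (1 count) in *tuft*, and only *Kdm1b* and *Kdm2a* are higher in *tuft*, *Kdm2a* not so under scaling by library totals.

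The *Kdm4* genes were the lowest group in *tuft* relative to wild type. *Kdm4a* (chr4:118136957-118180090), an H3K9 and H3K36 trimethyl demethylase, had 241 counts in *tuft* against 2636 in wild type. These are 42.9 and 161 normalized CPM and a ratio of 0.266 (0.232 to 0.304), so the *tuft* level was well under the wild-type one. *Kdm4b* (chr17:56325970-56403774), a relative with the same substrates, had 201 counts in *tuft* against 1301 in wild type. Its levels of 35.8 and 79.6 normalized CPM gave a ratio of 0.450 (0.386 to 0.522), an interval that reaches past 0.5, so the call rests on the point estimate. *Kdm4c* (chr4:74242497-74405864), which acts on trimethylated H3K9 and is known from embryonic stem cells, had 1 count in *tuft* against 200 in wild type. The ratio of 0.0146 (0.000367 to 0.0821) has a wide interval because of the single *tuft* count, and its upper end lies below the lower end of the intervals of *Kdm4a* and *Kdm4b*. Summed over the 3 genes, 443 counts in *tuft* against 4137 in wild type gave a ratio of 0.312 (0.282 to 0.344).

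The H3K27 demethylases differed from each other. *Kdm6a* (chrX:18160862-18279936), an X-linked subunit of the MLL3 and MLL4 H3K4 methyltransferase complexes, had 54 counts in *tuft* against 599 in wild type. Its levels were 9.62 and 36.7 normalized CPM, a ratio of 0.263 (0.195 to 0.347). *Kdm6b* (chr11:69398508-69420367), an inducible enzyme with the same substrate, had 416 counts in *tuft* against 1897 in wild type, or 74.1 and 116 normalized CPM. Its ratio of 0.639 (0.573 to 0.710) was below equality but did not reach 2-fold. Relative to *Kdm6a*, *Kdm6b* was 2.43 times (1.80 to 3.34) as abundant in *tuft* as in wild type, and this ratio does not depend on the scaling of the libraries.

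The amine oxidases lay on opposite sides of equality. *Kdm1a* (chr4:136550533-136602787), the catalytic subunit of the CoREST corepressor complex, had 684 counts in *tuft* against 3032 in wild type. These are 122 and 186 normalized CPM, a ratio of 0.657 (0.604 to 0.714). *Kdm1b* (chr13:47043373-47085279), known for clearing H3K4 methylation in oocytes before imprints are set, had 174 counts in *tuft* against 350 in wild type. Its levels of 31.0 and 21.4 normalized CPM gave a ratio of 1.45 (1.20 to 1.74). The *Kdm1b* level relative to *Kdm1a* was 2.204 times (1.79 to 2.70) as high in *tuft* as in wild type.

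The H3K36 and H3K9 enzymes *Kdm2a*, *Kdm3a* and *Kdm3b* stayed within 2-fold. *Kdm2a* (chr19:4316144-4398721), whose protein binds unmethylated CpG islands, had 903 counts in *tuft* against 2014 in wild type. At 161 and 123 normalized CPM its ratio was 1.31 (1.21 to 1.41), whereas under library totals alone its log2 ratio was -0.01, so its direction depends on the scaling. *Kdm3a* (chr6:71588970-71632990), known for its role in spermatogenesis and for its induction by hypoxia, had 369 counts in *tuft* against 1162 in wild type. Its ratio of 0.925 (0.820 to 1.04) had an interval that includes equality, and its levels were 65.8 and 71.1 normalized CPM. *Kdm3b* (chr18:34777008-34839370), its paralog, had 574 counts in *tuft* against 2467 in wild type. These are 102 and 151 normalized CPM, a ratio of 0.678 (0.618 to 0.742), and *Kdm3a* relative to *Kdm3b* was 1.36 times (1.17 to 1.59) as abundant in *tuft* as in wild type.

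**Figure D2:**
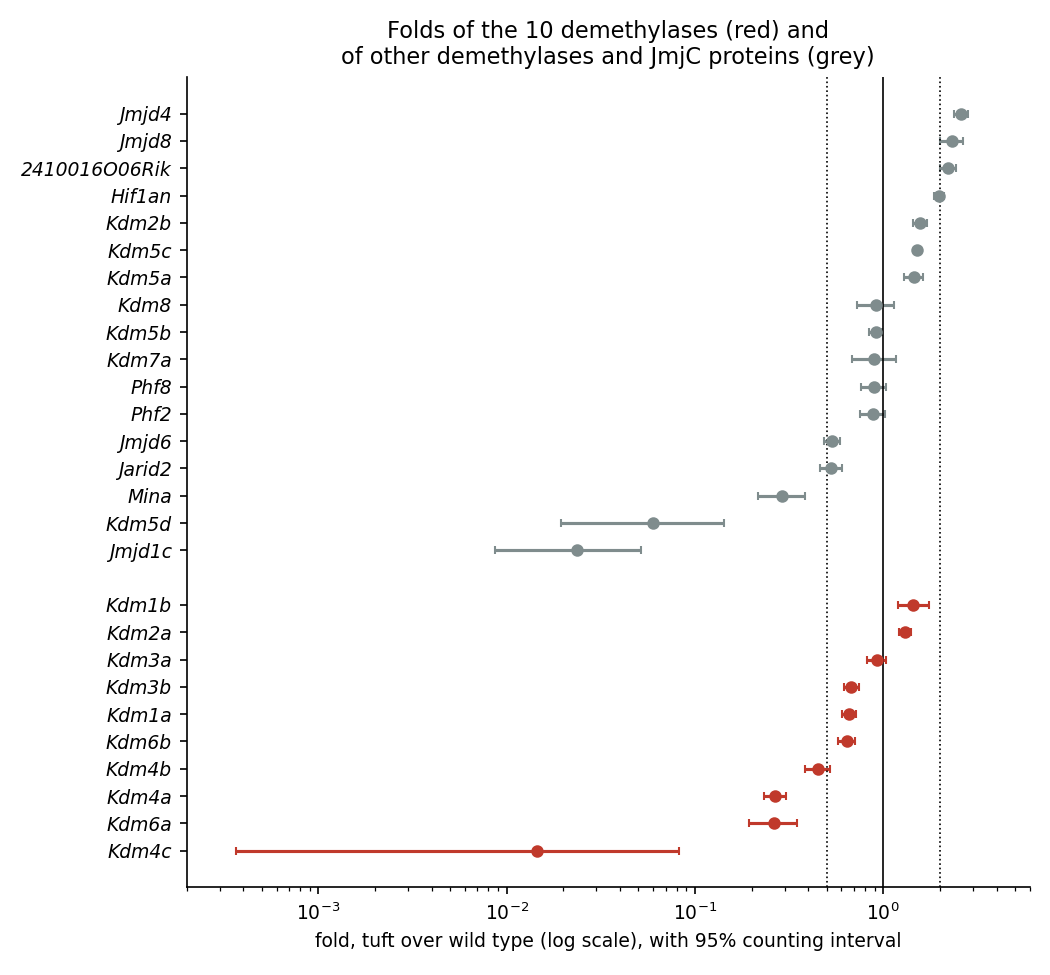
Ratio of *tuft* to wild type on a log axis for the 10 demethylases (red) and for the other demethylases and JmjC proteins with at least 100 counts in both libraries together (grey), with 95% counting intervals; the solid line marks equality and the dotted lines 2-fold. The red points run from 0.0146 for *Kdm4c* to 1.45 for *Kdm1b* (the points above equality include *Kdm2a*, which falls to equality under library totals), and the grey points from 0.0236 for *Jmjd1c* to 2.58 for *Jmjd4*.

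The composition of each subfamily, which is free of scaling, was compared by shares of counts. *Kdm1a* held 79.7% (76.9 to 82.4) of the *Kdm1* counts in *tuft* and 89.7% (88.6 to 90.7) in wild type. Within the *Kdm3* pair, *Kdm3b* held 60.9% (57.7 to 64.0) and 68.0% (66.4 to 69.5). The intervals of the libraries did not overlap for either pair. Within the *Kdm4* genes, *Kdm4a* held 54.4% (49.6 to 59.1) in *tuft* and 63.7% (62.2 to 65.2) in wild type. *Kdm4b* held 45.4% (40.7 to 50.1) and 31.4% (30.0 to 32.9), and *Kdm4c* 0.226% (0.00571 to 1.25) and 4.83% (4.20 to 5.53). *Kdm4b* thus made up more of the *Kdm4* RNA in *tuft*, although its own level was lower there. *Kdm6a* held 11.5% (8.75 to 14.7) of the *Kdm6* counts in *tuft* and 24.0% (22.3 to 25.7) in wild type. All of these intervals are exact (Clopper-Pearson) and cover counting error only.

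**Figure D3:**
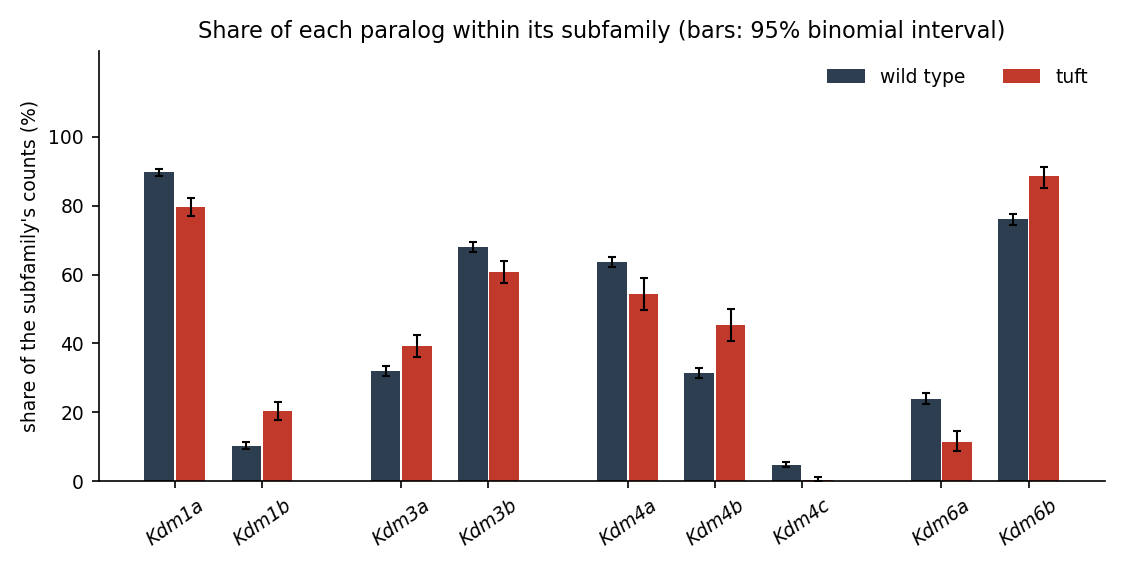
Share of each paralog in the counts of its subfamily, in percent, in wild type and *tuft*, with 95% exact binomial intervals. *Kdm1b*, *Kdm3a*, *Kdm4b* and *Kdm6b* take larger shares in *tuft*, for example *Kdm4b* at 45.4% against 31.4%.

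Of all 10 genes together, which had 3617 counts in *tuft* against 15658 in wild type, the *Kdm4* genes held 12.2% in *tuft* and 26.4% in wild type. *Kdm2a* held 24.97% and 12.9%. The *Kdm1*, *Kdm3* and *Kdm6* groups held 23.7%, 26.1% and 13.0% in *tuft* and 21.6%, 23.2% and 15.9% in wild type. The H3K9 and H3K36 trimethyl demethylases were therefore a smaller part of the RNA of this set in *tuft*, and the CpG island protein *Kdm2a* a larger one. The sums of the *Kdm1* and *Kdm3* pairs had ratios of 0.739 (0.685 to 0.796) and 0.757 (0.704 to 0.813), that of the *Kdm6* pair was 0.548 (0.496 to 0.605), and that of all 10 genes was 0.673 (0.649 to 0.697).

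Levels were compared between genes per kilobase of merged exons, in normalized CPM per kb. In wild type the order from the highest was *Kdm1a* at 35.8, *Kdm4a* at 27.9, *Kdm3b* at 19.6, *Kdm6b* at 16.7, *Kdm4b* at 16.3, *Kdm2a* at 16.2, *Kdm3a* at 14.3, *Kdm6a* at 4.49, *Kdm1b* at 4.44 and *Kdm4c* at 2.10. The counting intervals of *Kdm6b* and *Kdm4b*, *Kdm4b* and *Kdm2a*, and *Kdm6a* and *Kdm1b* overlapped. In *tuft* it was *Kdm1a* at 23.5, *Kdm2a* at 21.1, *Kdm3b* at 13.3, *Kdm3a* at 13.2, *Kdm6b* at 10.7, *Kdm4a* at 7.43, *Kdm4b* at 7.32, *Kdm1b* at 6.42, *Kdm6a* at 1.18 and *Kdm4c* at 0.0306. There, *Kdm1a* and *Kdm2a*, *Kdm3b* and *Kdm3a*, *Kdm4a* and *Kdm4b*, and *Kdm4b* and *Kdm1b* had overlapping intervals. *Kdm1a* led and *Kdm4c* came last in both libraries, and the main exchange was between *Kdm4a*, next to *Kdm1a* in wild type, and *Kdm2a*, next to it in *tuft*.

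The share of genes past 2-fold depended on the level of the gene. In the lowest decile of genes by mean level 95.9% were at least 2-fold lower in *tuft*, and in the highest decile 12.7%. *Kdm4c* lay in decile 3 from the bottom, where 60.8% were lower, and *Kdm6a* and *Kdm1b* in decile 6, where 28.8% were. *Kdm4b* and *Kdm3a* lay in decile 8, with 20.5% lower, *Kdm4a*, *Kdm2a*, *Kdm3b* and *Kdm6b* in decile 9, with 16.2%, and *Kdm1a* in the highest. The minimum of 10 counts applied to both libraries together and wild type was deeper. A gene could thus pass through its wild-type counts alone, as *Kdm4c* did with 1 and 200 counts. The part of this filter in the high shares at low levels was not tested. Log2 ratios were also centred on genes of like mean level, an alternative added after the data were seen. The median of all genes tested, -0.55, was added back, so equality on this scale is not the median of genes of like level. On this scale 7 demethylases were at least 2-fold lower, beside 4755 of all 13979 genes tested. The 7 included *Kdm1a*, *Kdm3b* and *Kdm6b* at -1.50, -1.40 and -1.35, which lay within 2-fold of the added -0.55. *Kdm1b* and *Kdm2a*, at -0.02 and -0.45, lay below equality but above the added -0.55.

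**Figure D4:**
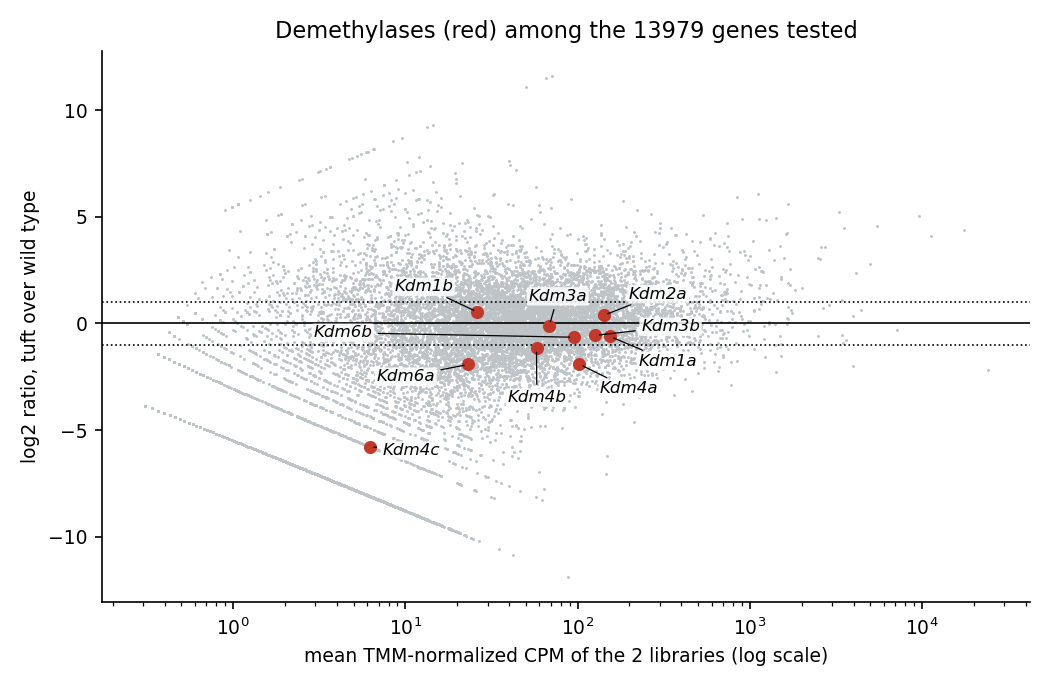
Log2 ratio of *tuft* to wild type against mean TMM-normalized CPM (log axis) for the 13979 genes tested (grey) and the 10 demethylases (red); dotted lines mark 2-fold. The demethylases lie inside the cloud, from -5.78 for *Kdm4c* to 0.53 for *Kdm1b*.

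**Figure D5:**
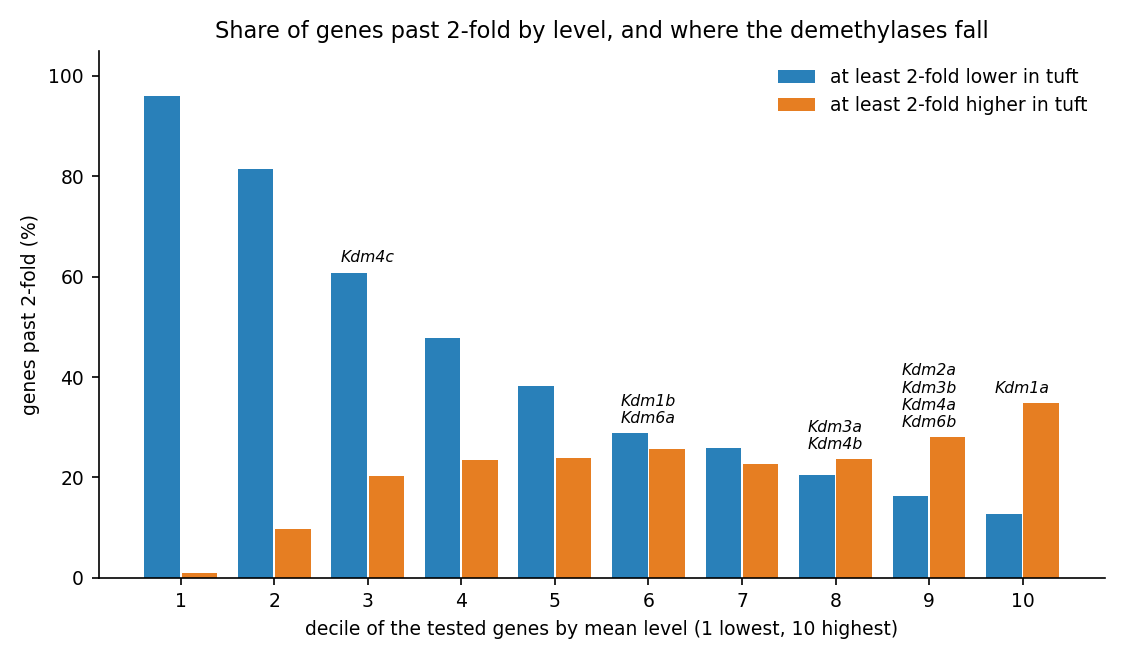
Percent of genes at least 2-fold lower (blue) and at least 2-fold higher (orange) in *tuft*, by decile of mean level, with the demethylases written above the decile that holds them. The share lower falls from 95.9% in the lowest decile to 12.7% in the highest.

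Some of the demethylases overlap other genes in position. By RefSeq gene spans, *Kdm1a* overlaps *Luzp1* by 4193 bases, and *Luzp1* had 278 counts in *tuft* against 1853 in wild type. *Kdm1b* overlaps *Dek* by 513 bases, and *Dek* had 391 and 1337 counts. *Kdm2a* overlaps the protein-coding *9430078G10Rik* by 2758 bases, and *Kdm4a*, *Kdm4b* and *Kdm6b* overlap a pseudogene or long non-coding RNAs, whereas *Kdm3a*, *Kdm3b*, *Kdm4c* and *Kdm6a* overlap none. These spans include introns, and overlaps of exons or of reads were not examined. Without the strand setting and overlap mode of the counting, how reads in such overlaps were counted cannot be told. Of the 4 genes that overlap none, 2 were lower, *Kdm4c* and *Kdm6a*.

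The other histone lysine demethylases and JmjC proteins had members on both sides of 2-fold. Of 21 found, 20 were tested, 4 were at least 2-fold lower and 5 at least 2-fold higher, against 42.8% lower and 21.3% higher among all genes tested. Their median log2 ratio was -0.13. Under library totals 6 were lower and 1 higher, beside 49.0% and 15.8% of all genes tested. *Jmjd1c*, a paralog of *Kdm3a* and *Kdm3b*, had 6 counts in *tuft* against 741 in wild type, a ratio of 0.0236 (0.00862 to 0.0516). *Kdm5d*, the Y-linked H3K4 demethylase, had 5 and 242 counts, a ratio of 0.0602 (0.0194 to 0.142). *Jmjd4*, a hydroxylase of a translation termination factor, had 980 and 1104 counts, a ratio of 2.58 (2.37 to 2.82), and *Jmjd8* 368 and 463 counts, a ratio of 2.31 (2.01 to 2.66). The larger *Kdm5* genes and the paralog of *Kdm2a* stayed within 2-fold: the ratios were 1.56 for *Kdm2b*, 1.45 for *Kdm5a*, 0.912 for *Kdm5b* and 1.52 for *Kdm5c*.

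*Kdm6a* was set beside its complex and its chromosome. Of 9 genes of the MLL3 and MLL4 complexes, which methylate H3K4 at enhancers, 3 were at least 2-fold lower and 0 higher, against 42.8% lower and 21.3% higher among all genes tested, with a median of -0.75. These were *Wdr5*, with 174 counts in *tuft* against 3787 in wild type and a ratio of 0.134 (0.114 to 0.156), *Ash2l*, with 199 and 4251 counts and a ratio of 0.136 (0.118 to 0.157), and the MLL4 gene *Kmt2d*, with 348 and 3912 counts and a ratio of 0.259 (0.231 to 0.289). The MLL3 gene *Kmt2c* had a ratio of 1.06 (0.919 to 1.23). *Wdr5* and *Ash2l* encode core subunits that other H3K4 methyltransferases also use. Under library totals 5 of the 9 were lower, beside 49.0% of all genes tested.

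On the sex chromosomes, *Uty*, the Y-linked relative of *Kdm6a*, had 39 counts in *tuft* against 55 in wild type, a ratio of 2.06 (1.33 to 3.17). *Ddx3y* had 127 and 110 counts and *Eif2s3y* 236 and 87, whereas *Kdm5d* had 5 and 242. Both libraries thus held RNA of Y-linked genes, and these did not share one direction. *Xist*, the RNA that coats the inactive X chromosome, had 1009 and 2846 counts, a ratio of 1.03 (0.960 to 1.11). The X-linked *Kdm5c* had 2669 and 5116 counts, *Ddx3x* 3470 and 5588, and *Eif2s3x* 48 and 246. The ratios of the X-linked genes were 1.52, 1.81 and 0.568, so *Kdm6a* at 0.263 was below all 3. The part of the sex of the pooled embryos in the *Kdm6a* value was not tested.

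For the partners of *Kdm1a*, 20 of 21 genes of the CoREST and related complexes were tested, of which 5 were at least 2-fold lower and 4 at least 2-fold higher, against 42.8% lower and 21.3% higher among all genes tested, with a median of -0.10. *Rcor1*, the CoREST scaffold, had 32 counts in *tuft* against 493 in wild type, a ratio of 0.189 (0.128 to 0.270). *Zfp217*, a zinc finger protein of the complex, had 53 and 1233 counts, a ratio of 0.125 (0.0932 to 0.165). *Mier1*, a corepressor related to CoREST, had 641 and 415 counts, a ratio of 4.50 (3.97 to 5.10), and *Phf21a*, the reader of unmethylated H3K4, 627 and 506, a ratio of 3.61 (3.20 to 4.06). The scaffold paralog *Rcor2* had more counts than *Rcor1* in both libraries, 1095 and 4565, and its ratio of 0.698 (0.653 to 0.746) was near that of *Kdm1a*.

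Genes tied to the writing of the marks were listed by substrate, and with 6 genes in each list their counts are to be read beside the 42.8% lower and 21.3% higher of all genes tested. Of 6 H3K9 methyltransferases, the counterparts of the KDM3 and KDM4 enzymes, 3 were at least 2-fold lower and 0 higher, with a median of -1.42: *Setdb1* had 91 counts in *tuft* against 2680 in wild type, a ratio of 0.0989 (0.0793 to 0.122), and *Suv39h2* 46 and 583, a ratio of 0.230 (0.166 to 0.310). *Suv39h1*, the paralog of *Suv39h2*, had a ratio of 1.01 (0.940 to 1.09), and *Ehmt2*, which writes the dimethyl mark that KDM3A removes, one of 1.46 (1.40 to 1.53). Of 6 genes of H3K27 methylation and core PRC2, the counterparts of KDM6A and KDM6B, 1 was lower and 2 higher, with a median of -0.19. These stand beside the same 42.8% and 21.3%. Under library totals 2 were lower and 2 higher, beside 49.0% and 15.8% of all genes tested. *Eed* had 20 and 872 counts, a ratio of 0.0668 (0.0406 to 0.104), *Suz12* 815 and 579, a ratio of 4.10 (3.68 to 4.57), and *Rbbp4*, a histone chaperone found in many complexes, 25683 and 9197, a ratio of 8.13 (7.94 to 8.33).

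Of 6 other genes listed under H3K4 methylation, set beside the KDM1 enzymes and not each shown to write the mark, 2 were lower and 2 higher. Their median was 0.62, and 42.8% and 21.3% of all genes tested were lower and higher. *Kmt2a* had 206 counts in *tuft* against 2515 in wild type, a ratio of 0.239 (0.206 to 0.275), and *Kmt2e* 124 and 768, a ratio of 0.470 (0.386 to 0.569). *Setd1a* had 5012 and 4635 counts, a ratio of 3.15 (3.02 to 3.28), and *Setd7* 1252 and 1206, a ratio of 3.02 (2.79 to 3.27). SETD1A deposits H3K4 methylation at promoters. Of 6 H3K36 methyltransferases, 1 was lower and 0 higher, again beside 42.8% and 21.3% of all genes, with a median of -0.50. It was *Setd2*, the enzyme of H3K36 trimethylation, with 119 and 820 counts and a ratio of 0.423 (0.346 to 0.513). Under library totals 3 of the 6 H3K36 genes were lower, beside 49.0% of all genes tested.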

How the data were processed

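The members and all lists of genes were chosen with earlier results of these data known. RNA-Seq of pooled rostrum RNA was analyzed as 1 library per genotype. The values deposited by the authors are raw counts for each gene symbol, without normalization. Single-end Ion Proton reads had been trimmed, aligned to mm10 with TopHat and counted with HTSeq, and the submitters' processing notes name TopHat2 2.0.14, Bowtie2 2.2.5, SAMtools 0.1.18 and Cufflinks 2.1.1. The overlap mode, strand setting and gene models of the counting are not given in the sources used here. The 5 summary lines per column were left out of totals. They held 59.2% of entries in *tuft* and 51.4% in wild type as alignments that were not unique, 12.8% and 10.8% on no gene and 0.667% and 0.526% ambiguous, leaving 27.4% and 37.3% on genes.

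Counts were scaled with TMM (edgeR 4.0.16, R 4.3.3). Log2 ratios used a pseudocount of 0.5 of a count at the mean library size, and understate changes of low genes. Ratios in the text are of normalized counts without it. A gene with at least 10 counts in both libraries together was tested in the sense of being compared, and called when its log2 ratio with the pseudocount was past 2-fold. With single libraries no residual degrees of freedom remain for edgeR's quasi-likelihood test, and the probabilities of NOISeq, the method of the study, come from simulated libraries and were not used. Intervals are 95% Clopper-Pearson intervals (exact conditional intervals for ratios of ratios), computed with scipy 1.17.1 in Python 3.11.15, with numpy 2.4.6, pandas 2.3.3 and matplotlib 3.10.9. The scripts were tested on simulated data. A library at 0 was set to 3 counts for folds, which leaves out the counting error of the other library.

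Named genes are the 10 demethylases, *Tet1*, the sex-linked genes and, in each list, up to 2 highest and 2 lowest log2 ratios past 2-fold among genes whose counts in both libraries sum to at least 100. Other genes were named after their values were seen. Positions, overlaps and promoters came from RefSeq GRCm38.p6, and exon lengths from GENCODE M1 (NCBIM37), used as lengths only. Alternatives were library totals, the upper quartile, DESeq2 1.42.0 size factors, TMM without hemoglobin genes and *Rn45s* or on filtered genes, a pseudocount of 1, thresholds of 1.5-fold and 4-fold or the whole interval, members without overlaps, and other lengths. Centring on genes of like transcript length, GC content or mean level was added after the data were seen. The median of all genes tested was added back to the centred ratios.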

Additional observations from a re-analysis of the deposited data

How the results depend on the processing

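The count of 4 demethylases at least 2-fold lower was 6 under library totals, 6 at a threshold of 1.5-fold, 3 where the whole counting interval had to lie past 2-fold, 1 at a threshold of 4-fold, 2 among genes that overlap no other gene and 7 after centring on mean level, and the changes at 1.5-fold and 4-fold and without overlapping genes follow from the construction of those alternatives. The count of 7 is on a scale to which the median of all genes, -0.55, was added back after centring. On that scale 4755 of all 13979 genes tested were lower and 2880 higher. The count of 0 higher was 0 under each alternative tried, a threshold of 1.5-fold included. Of 90 log2 ratios of demethylases under alternatives, 68 stayed within their counting interval, 22 moved out of it and 3 had the opposite sign. Those 3 were of *Kdm2a* under library totals and of *Kdm2a* and *Kdm1b* after centring on mean level. The centred values, -0.45 and -0.02, lay above the added -0.55, so neither gene lay below the median of genes of like mean level. *Kdm4a* ranged from -2.61 to -1.67, *Kdm4b* from -1.75 to -1.10, *Kdm4c* from -6.11 to -4.73 and *Kdm6a* from -2.47 to -1.88. The ends at -2.61, -1.75, -4.73 and -2.47 came from centring on mean level and include the added median. Over the 128 tested genes of the pathway lists, 38 were lower and 20 higher, beside 42.8% and 21.3% of all genes tested. Under library totals 55 were lower and 14 higher, beside 49.0% and 15.8% of all genes tested. Of 132 counts of single lists under alternatives, 7 moved by more than 1.5 times. The ratio of *Tet1* ranged from 0.163 to 0.221. With coding lengths in place of merged exons, 5 of 10 demethylases kept their place in the wild-type order per kb. The cause of the shifts with scaling and level was not tested. No paired analysis was possible because each genotype has 1 library. For the same reason no replicate could be left out.

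Depth limits the low genes most. In *tuft* 3 counts are 0.535 normalized CPM, so that *Kdm4c*, with 1 count, is at the limit of what that library can show, and its ratio is uncertain within the interval given.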

Other observations

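The genes that share cofactors with the JmjC demethylases were also compared. Of 18 other Fe(II)- and 2-oxoglutarate-dependent oxygenases tested, *Tet1* among them, 7 were at least 2-fold lower in *tuft* and 3 at least 2-fold higher, with a median log2 ratio of -0.74, against 42.8% and 21.3% of all genes tested. *Tet2* had 0 counts in *tuft* against 129 in wild type, which is 14.8-fold lower with *tuft* set to the floor of 3 counts. The counting interval of its ratio reached up to 0.0845. *Tet3* had 884 and 1760 counts, a ratio of 1.46 (1.35 to 1.59). The study detected no significant difference of *Tet2* or *Tet3* in its RNA-Seq or its qPCR. *Egln3*, a prolyl hydroxylase of the hypoxia-inducible factors, had 0 and 277 counts, 31.7-fold lower at that floor (interval of the ratio up to 0.039). *Lepre1*, a collagen prolyl hydroxylase, had 1396 and 804 counts, a ratio of 5.06 (4.63 to 5.52), and *Alkbh1*, a nucleic acid demethylase, 894 and 608, a ratio of 4.28 (3.86 to 4.75).

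A further list held 17 genes that make or use 2-oxoglutarate, succinate or fumarate, metabolites that feed or inhibit these oxygenases. Of these, 8 were lower and 1 higher, against 42.8% and 21.3% of all genes tested, with a median of -0.69. Under library totals 10 were lower and 0 higher, beside 49.0% and 15.8% of all genes tested. The subunits of succinate dehydrogenase differed among themselves: *Sdhb* had 110 counts in *tuft* against 3021 in wild type, a ratio of 0.106 (0.0868 to 0.128), *Sdhc* 78 and 1465, a ratio of 0.155 (0.122 to 0.195), and *Sdhd* 2404 and 3009, a ratio of 2.33 (2.204 to 2.46). Of 17 hypoxia-responsive genes, a group to which *Kdm3a* and *Kdm4b* are known to belong in cultured cells, 5 were lower and 1 higher. Among all genes tested 42.8% were lower and 21.3% higher, and the median of the 17 was -0.74. The other 11 lay within 2-fold, on both sides of equality. The summed level of the 17 was 6348 normalized CPM in *tuft* against 5122 in wild type, of which *Ldha* made up 4454 and 3467. The 5 lower genes, *Egln3*, *Ankrd37*, *Car9*, *Adm* and *Epas1*, all had 0 counts in *tuft*. Each passed the minimum of 10 counts through its wild-type counts alone. *Car9* and *Adm* had 16 and 21 wild-type counts, and the intervals of their ratios reached up to 0.755 and 0.559. Those intervals did not lie wholly past 2-fold. Under library totals 9 of the 17 were lower, beside 49.0% of all genes tested. *Epas1* had 0 and 142 counts, 16.3-fold lower with *tuft* set to the floor used above (interval of the ratio up to 0.0766). *Ndrg1* had 163 and 86 counts, a ratio of 5.52 (4.22 to 7.25).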
